A study of Mus musculus with 13 samples.

Results

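Hnf4g and Maf, which encode transcription factors of mature absorptive cells, fell on loss of casein kinase Iα (CKIalpha) in mouse enterocytes without p53. They also fell averaged over 3 backgrounds, and a dependence on p53 was not shown. The caudal homeobox genes Cdx1 and Cdx2 and the gene of the related nuclear receptor Hnf4a passed no test. These genes belong to a set of 9 transcription factor genes of enterocyte identity, namely Cdx1, Cdx2, Hnf4a, Hnf4g, Gata4, Maf, Prdm1, Klf4 and Elf3. They were chosen by name, with earlier results of these data known, and each was read from the array probe set annotated to that gene alone. Each of the 9 had 1 such probe set, and all 9 were among the 16721 genes tested, out of 19938 genes with a probe set of their own.

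CKIalpha phosphorylates β-catenin, through which Wnt signals reach the nucleus, and so starts its breakdown. Total RNA of enterocytes of 129/SVJ mice was measured on 13 arrays, and the values are log2 intensities. All mice carried at least 1 gut-specific knockout allele of CKIalpha. The 6 groups of 2 arrays were heterozygous for it (CKIalpha Het) or homozygous (CKIalpha KO), in 3 backgrounds, one that has both p53 and p21, a p21 KO background (CKIalpha Het/p21 KO and CKIalpha KO/p21 KO) and a p53 KO background (CKIalpha Het/p53 KO and CKIalpha KO/p53 KO). No group had 2 intact CKIalpha alleles. The labels do not give the promoter that drove the deletion, whether p53 and p21 were absent from the whole animal, or the age and sex of the mice. The array titled as the third CKIalpha KO/p53 KO replicate is a CKI knockout alone by its genotype and source labels, and was left out of every comparison.

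Intestinal cells are made in crypts, where Wnt signalling keeps stem cells dividing, and they mature as they move up the villus. Cdx2 and its relative Cdx1 set intestinal identity, and the nuclear receptors Hnf4a and Hnf4g switch on brush border and lipid genes in absorptive cells, where they can stand in for each other. Gata4 marks the proximal small intestine. Maf and Prdm1 (Blimp1) take part in the zonation of enterocytes along the villus and in the change from suckling to adult enterocytes, Klf4 is tied to the exit from the cell cycle and to goblet cell maturation, and Elf3 is an epithelial factor of the ETS family.

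The replicates of a group correlated across genes between 0.971 (CKIalpha KO/p21 KO) and 0.990 (CKIalpha Het), where genes are not independent replicates. The array medians lay between 4.96 and 5.12. Csnk1a1, the targeted gene, lay between 10.45 and 10.80 on the 12 grouped arrays. Its probe set checks no genotype, since the labels do not say which part of the gene was deleted, and Trp53 and Cdkn1a had no probe set of their own. Xist was at most 3.94 on every replicate 1 array and at least 8.91 on every replicate 2 array, so that each group held an array of either sex pattern, arrays with the same number share it, and the spread between replicates includes any difference between them. The absorptive genes of the list used here had a mean log2 level between 10.5 and 12.3 on the 12 arrays. T cell genes lay between 7.25 and 10.1, fibroblast and smooth muscle genes between 5.08 and 6.92, and myeloid genes between 4.91 and 5.71, so RNA of T cells was present beside that of enterocytes. In bulk samples such as these, fewer cells of a type and less RNA per cell cannot be told apart.

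Of the nuclear receptor genes, Hnf4g fell and no difference of Hnf4a passed. Hnf4g had log2 values of 11.67 and 11.81 on the CKIalpha Het arrays and 11.42 and 11.29 on the CKIalpha KO arrays. In the p21 KO background it was at 11.50 and 11.33 (CKIalpha Het/p21 KO) and at 11.21 and 10.07 (CKIalpha KO/p21 KO). In the p53 KO background it was at 11.76 and 11.90 (CKIalpha Het/p53 KO) and at 9.98 and 10.26 (CKIalpha KO/p53 KO). In each background every KO array thus lay below both Het arrays, and the lowest values were those of both CKIalpha KO/p53 KO arrays and of replicate 2 of CKIalpha KO/p21 KO. In the order of the group means, CKIalpha Het/p53 KO and CKIalpha Het overlapped, as did CKIalpha Het/p21 KO and CKIalpha KO, and the lowest pair, CKIalpha KO/p21 KO and CKIalpha KO/p53 KO.

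Hnf4g fell by 1.71 ± 0.29 on the log2 scale (SE, n = 2 per group) on loss of CKIalpha without p53, which is 3.26-fold lower, with an adjusted p of 0.00889 by limma over all tested genes. The difference was -0.38 ± 0.29 with p53 and p21 present (adjusted p = 0.782) and -0.78 ± 0.29 in the p21 KO background (adjusted p = 0.153), and neither passed. Averaged over the 3 backgrounds Hnf4g fell by 0.95 ± 0.17, or 1.94-fold (adjusted p = 0.00492, 6 KO against 6 Het arrays). Without replicate 1 of CKIalpha KO/p21 KO, Hnf4g was at -1.34 in the p21 KO background and passed (adjusted p = 0.00301, against 0.00301 to 0.779 over all alternatives). Without p53, the call was lost when CKIalpha Het/p53 KO replicate 1 (-1.78, adjusted p = 0.0629), its replicate 2 (-1.63, adjusted p = 0.0538) or CKIalpha KO/p53 KO replicate 2 (-1.85, adjusted p = 0.0503) was left out, and over all alternatives the adjusted p ran from 0.000282 to 0.0629.

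Hnf4a stayed within a narrow band of log2 values, from 10.62 (CKIalpha Het replicate 1) to 11.01 (CKIalpha KO/p21 KO replicate 1). It was at 10.85 and 10.65 on the CKIalpha KO/p53 KO arrays, against 10.93 and 10.86 on the CKIalpha Het/p53 KO arrays, and at 10.99 and 10.96 on the CKIalpha KO arrays, against 10.62 and 10.78 on the CKIalpha Het arrays. The KO arrays were thus the lower ones without p53 and the higher ones with p53 and p21 present. The averaged difference was 0.05 ± 0.08, with a 95% interval from -0.12 to 0.22, and it was -0.07 after a further quantile normalization. The differences by background were 0.28 ± 0.13, 0.01 ± 0.13 in the p21 KO background (-0.20 after quantile normalization) and -0.14 ± 0.13 in the p53 KO background, and none passed (adjusted p = 0.582, 0.972 and 0.463 by limma).

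The change of Hnf4g on loss of CKIalpha minus that of Hnf4a was -0.66 (log2) with p53 and p21 present, -0.79 in the p21 KO and -1.56 in the p53 KO background. The mean of these was -1.0, with an exact two-sided permutation p of 0.00926 over 216 regroupings of KO and Het arrays within backgrounds. This is the smallest p that these regroupings can give, and it was 0.0185 after adjustment over the 2 pairs of related genes examined. For Cdx2 against Cdx1 the mean difference of the changes was 0.20 (exact permutation p = 0.102, adjusted p = 0.102). With KO and Het arrays swapped only within a replicate number, and so within an Xist pattern, 64 regroupings remain. The exact permutation p of Hnf4g against Hnf4a was then 0.0312, the smallest that these can give, and 0.0625 after adjustment, and did not pass. That of Cdx2 against Cdx1 was 0.188. These tests were chosen after the values were seen.

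RefSeq promoter windows of GRCm38.p6 were matched for 5 of the 9 genes, namely Cdx2, Hnf4a, Prdm1, Klf4 and Elf3. Hnf4a had 2 windows 40298 bases apart, and the array, with 1 probe set for the gene, gives no separate value for them. They are shown because no difference of Hnf4a passed while its paralog fell, together with the window of Klf4, a member that fell on average. Each is the 250 bases before the annotated start, 5′ to 3′ on the strand of the gene, with motif matches in capitals. The upstream Hnf4a window lies on the plus strand at chr2:163506607-163506856, the downstream one on the plus strand at chr2:163546905-163547154, and that of Klf4 on the minus strand at chr4:55532476-55532725.
Hnf4a upstream: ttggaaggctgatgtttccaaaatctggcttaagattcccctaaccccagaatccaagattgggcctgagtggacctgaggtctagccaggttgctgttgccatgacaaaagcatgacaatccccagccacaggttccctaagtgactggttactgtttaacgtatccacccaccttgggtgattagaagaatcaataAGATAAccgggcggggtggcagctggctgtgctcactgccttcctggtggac
Hnf4a downstream: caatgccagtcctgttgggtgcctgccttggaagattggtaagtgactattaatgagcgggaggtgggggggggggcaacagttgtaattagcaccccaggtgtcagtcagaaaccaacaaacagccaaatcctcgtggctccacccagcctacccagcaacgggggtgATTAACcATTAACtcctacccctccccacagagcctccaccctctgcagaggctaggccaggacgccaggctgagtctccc
Klf4: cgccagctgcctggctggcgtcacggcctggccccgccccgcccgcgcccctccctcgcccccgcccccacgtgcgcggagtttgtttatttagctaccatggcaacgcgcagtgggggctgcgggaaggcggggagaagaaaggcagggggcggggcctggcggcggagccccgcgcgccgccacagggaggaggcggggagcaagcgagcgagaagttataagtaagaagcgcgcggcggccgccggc

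Of the motifs searched on both strands, the letters AGATAA, which Gata4 and its relatives bind, were matched in the upstream Hnf4a window, 52 bases before the start, and are found in 9.99% of 32851 windows of this length. The letters GTTAAT, part of the site of HNF1 factors, were matched at 81 and 74 bases before the downstream start of Hnf4a and 30 bases before that of Cdx2, and are found in 6.43% of windows. The letters CTTTGAT, the motif of the TCF/LEF partners of β-catenin (3.21% of windows), TTTATG, that of CDX factors (10.8%), and CAAAGTCC, from the HNF4 site (1.2%), were in none of the member windows, and those of Klf4, Prdm1 and Elf3 held none of the 5 motifs. The TCF/LEF and HNF4 motifs can overlap in part when on opposite strands. A match is a description of letters in the window.

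**Figure D1:**
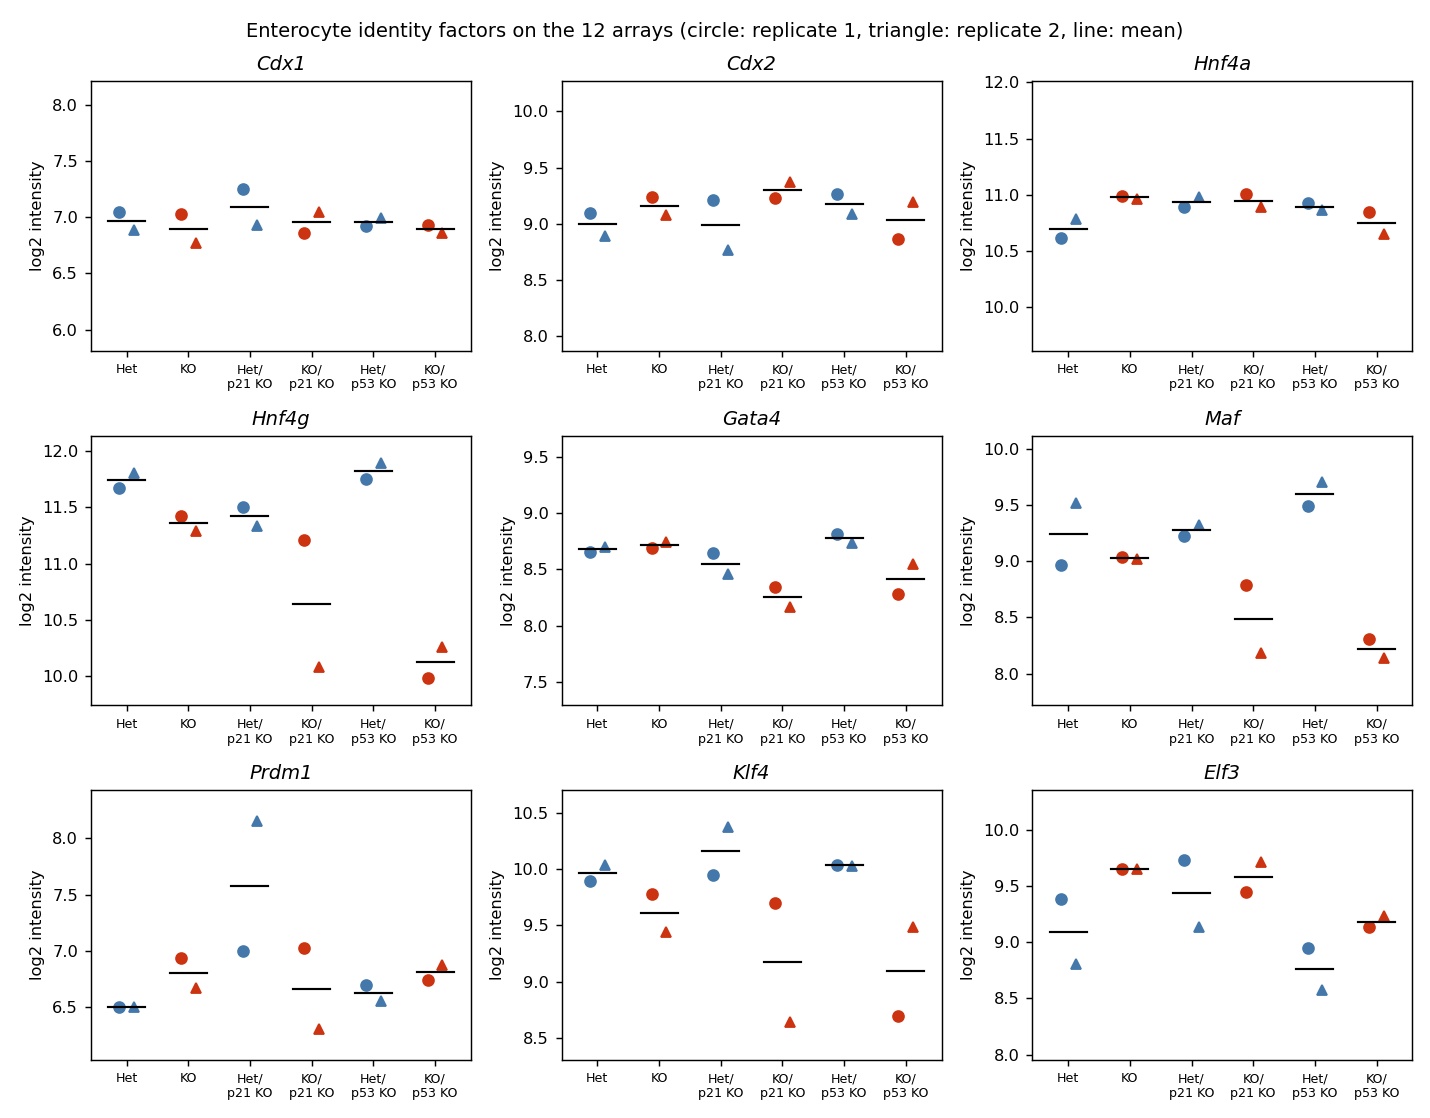
Log2 intensity of each of the 9 genes (vertical axis, the same 2.4 log2 units high in every panel) on the 12 arrays of the 6 genotype groups, with CKIalpha Het groups in blue and CKIalpha KO groups in red; circles are replicate 1, triangles replicate 2, and lines the group mean. The group means of Hnf4g, Maf and Klf4 are lowest in CKIalpha KO/p53 KO, which overlaps CKIalpha KO/p21 KO in all 3 genes. The points of Cdx1, Cdx2 and Hnf4a lie close together, and Prdm1 is high on 1 CKIalpha Het/p21 KO array.

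Maf came after Hnf4g in size of change in the p53 KO background and on average. It had log2 values of 8.97 and 9.52 on the CKIalpha Het arrays and 9.04 and 9.02 on the CKIalpha KO arrays, which lay between them. In the p21 KO background it was at 9.23 and 9.32 in CKIalpha Het/p21 KO and at 8.79 and 8.18 in CKIalpha KO/p21 KO. In the p53 KO background it was at 9.49 and 9.70 in CKIalpha Het/p53 KO and at 8.31 and 8.14 in CKIalpha KO/p53 KO. The KO arrays lay below the Het arrays in both knockout backgrounds, and overlapped them with p53 and p21 present. In the order of the group means CKIalpha Het/p53 KO was highest and did not overlap the next group, CKIalpha Het/p21 KO, and the lowest groups, CKIalpha KO/p21 KO and CKIalpha KO/p53 KO, overlapped.

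Maf fell by 1.37 ± 0.23 (log2, SE, n = 2 per group), or 2.59-fold, on loss of CKIalpha without p53 (limma adjusted p = 0.00803). It was -0.79 ± 0.23 in the p21 KO background (adjusted p = 0.0848) and -0.21 ± 0.23 with both genes present (adjusted p = 0.861), and passed in neither. On average it fell by 0.79 ± 0.13, or 1.73-fold (adjusted p = 0.00382). In the p21 KO background it passed without CKIalpha KO/p21 KO replicate 1 (-1.09, adjusted p = 0.0128, against 0.0128 to 0.557 over all alternatives). Without p53 the call was lost without CKIalpha Het/p53 KO replicate 1 (-1.48, adjusted p = 0.0629), its replicate 2 (-1.27, adjusted p = 0.0501) or CKIalpha KO/p53 KO replicate 2 (-1.28, adjusted p = 0.0578), in a range from 0.0015 to 0.0629 over all alternatives. Maf is also expressed by macrophages and T cells. In the comparison without p53 the 9 myeloid genes had a median difference of -0.003 and the 8 T cell genes one of -0.09, with T cell levels of 7.78 and 9.21 in CKIalpha Het/p53 KO and 9.28 and 7.72 in CKIalpha KO/p53 KO, which overlapped. The T cell genes had a median difference of -1.53 in the p21 KO background, 0 of 8 passed by limma and 8 had an unadjusted p under 0.05, with levels of 8.96 and 10.1 in CKIalpha Het/p21 KO and 8.65 and 7.25 in CKIalpha KO/p21 KO. The myeloid genes had a median of -0.41 there, with 0 of 9 passing by limma, beside 1.97% of all genes, and 4 at an unadjusted p under 0.05, beside 23.2%. Of these, the macrophage genes Csf1r (-0.60 ± 0.18) and Adgre1 (-0.73 ± 0.21) and Itgam (-0.66 ± 0.27) were lower, and Cd14 (0.69 ± 0.20) was higher. On average over the backgrounds Csf1r (-0.35 ± 0.11, adjusted p = 0.0361) and Adgre1 (-0.40 ± 0.12, adjusted p = 0.0395) fell and Cd68 and Cd14 rose, with a myeloid median of -0.30. The part of T cells and macrophages in the Maf values was not tested.

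Klf4 had log2 values of 9.89 and 10.03 on the CKIalpha Het arrays, 9.95 and 10.37 in the p21 KO and 10.04 and 10.03 in the p53 KO background. The CKIalpha KO arrays were at 9.78 and 9.44, at 9.70 and 8.64 in the p21 KO and at 8.70 and 9.49 in the p53 KO background. In each background both KO arrays lay below both Het arrays, and the KO replicates of the knockout backgrounds differed widely. Klf4 fell by 0.76 ± 0.20 on average over the backgrounds, or 1.70-fold (limma adjusted p = 0.021), and passed in no single background, with -0.35 ± 0.34, -0.99 ± 0.34 in the p21 KO and -0.94 ± 0.34 in the p53 KO background (adjusted p = 0.842, 0.126 and 0.0829).

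The averaged call of Klf4 was lost when 1 of 6 of the 12 arrays was left out, namely replicate 2 of CKIalpha Het, of CKIalpha KO or of CKIalpha Het/p21 KO, either CKIalpha Het/p53 KO array, or CKIalpha KO/p53 KO replicate 1. The differences were then between -0.76 and -0.63 with adjusted p from 0.0502 to 0.0633, against 0.00196 to 0.0633 over all alternatives. Klf4 passed in the p21 KO background without CKIalpha KO/p21 KO replicate 1 (-1.52, adjusted p = 0.0114, against 0.0114 to 0.682). Without p53 its value of -0.94 passed when either CKIalpha KO/p21 KO array was left out of the spread (adjusted p = 0.0267, against 0.0267 to 0.385). Klf4 is also a goblet cell factor. Beside it, 5 of 7 goblet genes fell without p53, against 6.82% of all tested genes called lower. On average over the backgrounds, where Klf4 passed, 7 of 7 goblet genes fell, against 8.96% called lower. Their mean level was 10.5 and 10.4 on the CKIalpha Het/p53 KO arrays and 9.49 and 9.04 on the CKIalpha KO/p53 KO arrays. The part of goblet cells in the Klf4 values was not tested.

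Gata4 lay between 8.17 and 8.82 on the 12 arrays. It was at 8.82 and 8.74 in CKIalpha Het/p53 KO and 8.28 and 8.55 in CKIalpha KO/p53 KO, and at 8.65 and 8.46 in CKIalpha Het/p21 KO and 8.34 and 8.17 in CKIalpha KO/p21 KO, with the KO arrays lower in each. With both genes present the KO arrays (8.69 and 8.75) overlapped the Het arrays (8.66 and 8.70). None of the differences passed, with 0.04 ± 0.14, -0.30 ± 0.14 in the p21 KO background, -0.36 ± 0.14 in the p53 KO background and -0.21 ± 0.08 on average (limma adjusted p = 0.977, 0.244, 0.0993 and 0.0919). Quantile normalization of the arrays brought the difference without p53 to -0.46 (adjusted p = 0.0447, against 0.0447 to 0.393 over all alternatives) and the average to -0.27 (adjusted p = 0.0325, against 0.0325 to 0.2), and both passed.

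The homeobox genes showed little spread between groups. Cdx1 lay between 6.77 and 7.26, and all groups next to each other in the order of means overlapped. Its averaged difference on loss of CKIalpha was -0.09 ± 0.09 with a 95% interval from -0.29 to 0.11, and its differences by background lay between -0.14 and -0.06. Cdx2 lay between 8.77 and 9.37, again with all groups next to each other in the order of means overlapping. In the p21 KO background both KO arrays (9.23 and 9.37) lay above both Het arrays (9.21 and 8.77). The averaged difference of Cdx2 was 0.11 ± 0.11 with an interval from -0.13 to 0.34. By background Cdx2 was at 0.16 ± 0.18, 0.31 ± 0.18 in the p21 KO and -0.15 ± 0.18 in the p53 KO background. These intervals leave room for changes of that size in either gene, and for both genes no difference passed (lowest limma adjusted p over the 4 comparisons 0.491 for Cdx1 and 0.354 for Cdx2).

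Elf3 was at 9.38 and 8.80 in CKIalpha Het and 9.65 and 9.65 in CKIalpha KO, and at 8.95 and 8.57 in CKIalpha Het/p53 KO and 9.14 and 9.23 in CKIalpha KO/p53 KO. The KO arrays lay above the Het arrays in both comparisons. The groups overlapped in the p21 KO background, at 9.74 and 9.14 in CKIalpha Het/p21 KO and 9.44 and 9.71 in CKIalpha KO/p21 KO. The differences were 0.56 ± 0.24, 0.14 ± 0.24 in the p21 KO background, 0.42 ± 0.24 in the p53 KO background and 0.37 ± 0.14 on average (limma adjusted p = 0.529, 0.805, 0.245 and 0.0797), and none passed. The average passed without CKIalpha Het replicate 1 (0.47, adjusted p = 0.0477) or CKIalpha Het/p21 KO replicate 1 (0.47, adjusted p = 0.0373), in a range from 0.0373 to 0.192.

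Prdm1 was highest on a single array. It lay between 6.30 and 7.02 on 11 arrays, and was at 8.16 on replicate 2 of CKIalpha Het/p21 KO, whose other replicate was at 7.0. The CKIalpha Het/p21 KO group, with both arrays above both CKIalpha Het arrays (6.5 on each), was 1.08 ± 0.34 higher in log2 than CKIalpha Het and did not pass (limma adjusted p = 0.723). On loss of CKIalpha in the p21 KO background Prdm1 was at -0.91 ± 0.34 (adjusted p = 0.143), and at 0.30 ± 0.34 and 0.19 ± 0.34 with both genes present and in the p53 KO background (adjusted p = 0.866 and 0.723). The averaged difference was -0.14 ± 0.19 (adjusted p = 0.624). Without CKIalpha Het/p21 KO replicate 2, the value against CKIalpha Het was 0.50 and those on loss of CKIalpha were -0.33 in the p21 KO background and 0.053 on average. Without CKIalpha KO/p21 KO replicate 1 the value in the p21 KO background was -1.27 and passed (adjusted p = 0.0448, against 0.0448 to 0.679 over all alternatives).

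The CKIalpha Het/p21 KO replicate 2 array was also the highest of the 12 in the fibroblast and smooth muscle list (mean log2 level 6.92, against 5.08 to 6.23 on the others) and in the T cell list (10.1, against 7.25 to 9.42). The genes whose pattern over the 12 arrays was closest to that of Prdm1 were Cald1, a smooth muscle actin-binding protein, Rgs5, a pericyte gene, and Furin, a protease. They were picked for that likeness, so their own high values on this array are no separate observation. The B cell and plasma cell list, cells in which Prdm1 is a known regulator, was at 5.67 there, against 5.38 to 6.37 on the others. Its highest level, 6.37, was on replicate 1 of the same CKIalpha Het/p21 KO group. The part of stromal and lymphoid RNA in the Prdm1 values was not tested.

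**Figure D2:**
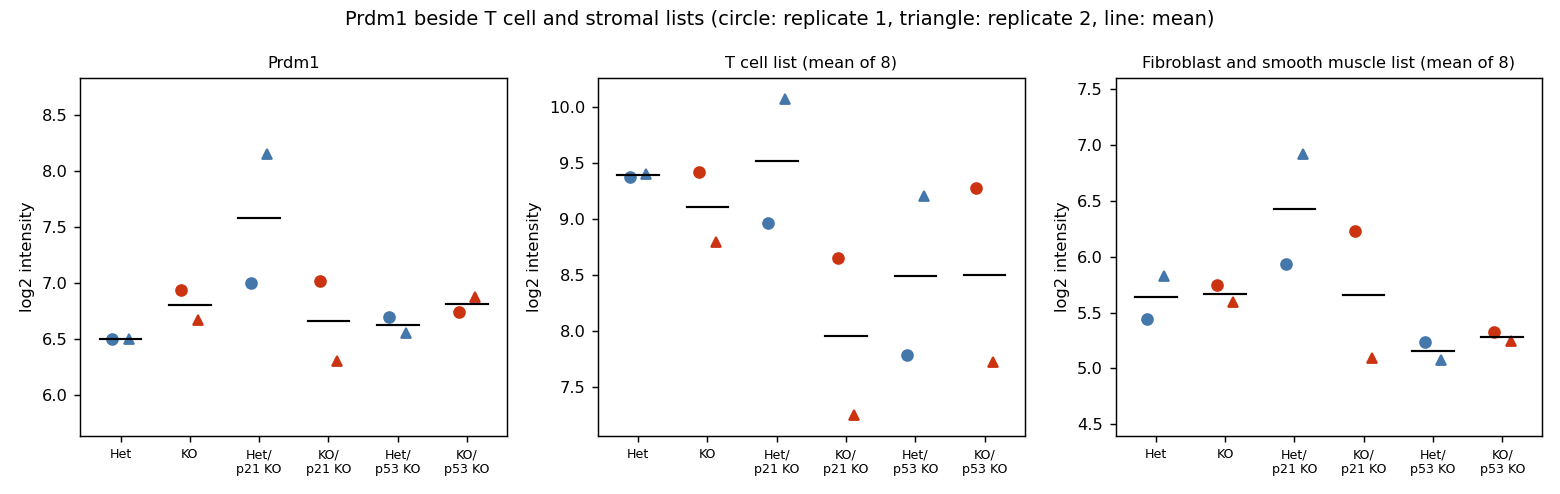
Log2 intensity of Prdm1 (left), the mean of 8 T cell genes (middle) and the mean of 8 fibroblast and smooth muscle genes (right) on the 12 arrays of the 6 genotype groups, with CKIalpha Het groups in blue and CKIalpha KO groups in red; circles are replicate 1, triangles replicate 2, and lines the group mean. All 3 are highest on replicate 2 of CKIalpha Het/p21 KO, at 8.16, 10.1 and 6.92.

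Counted over the set, limma called 0 of the 9 genes on loss of CKIalpha with p53 and p21 present, where 0.0239% of all tested genes passed. At an unadjusted p under 0.05 there was 1 of 9, beside 9.09% of all genes. In the p21 KO background it called 0 of 9, against 1.97% of all genes, with 4 of 9 at an unadjusted p under 0.05, beside 23.2% of all genes. In the p53 KO background 2 of 9 passed, both lower, against 6.82% of all genes called lower and 17.8% in either direction, with 4 of 9 at an unadjusted p under 0.05, beside 34.5%. On average over the backgrounds 3 of 9 passed, all lower, against 8.96% called lower and 24.4% in either direction, with 5 of 9 at an unadjusted p under 0.05, beside 38.0%. The median log2 difference of the 9 genes was 0.04, -0.30 and -0.15 in these 3 backgrounds and -0.14 on average, beside 0.02, -0.01, -0.06 and -0.03 over all tested genes. Het and KO arrays did not overlap in 5, 5 and 7 of the 9 genes, while 39.1%, 51.2% and 64.6% of all genes did so. A further quantile normalization gave 1407 genes higher and 1369 lower without p53, in place of 1841 and 1140, with 143 and 82 in the p21 KO background, in place of 244 and 86, and on average 2056 and 1914, in place of 2585 and 1499.

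**Figure D3:**
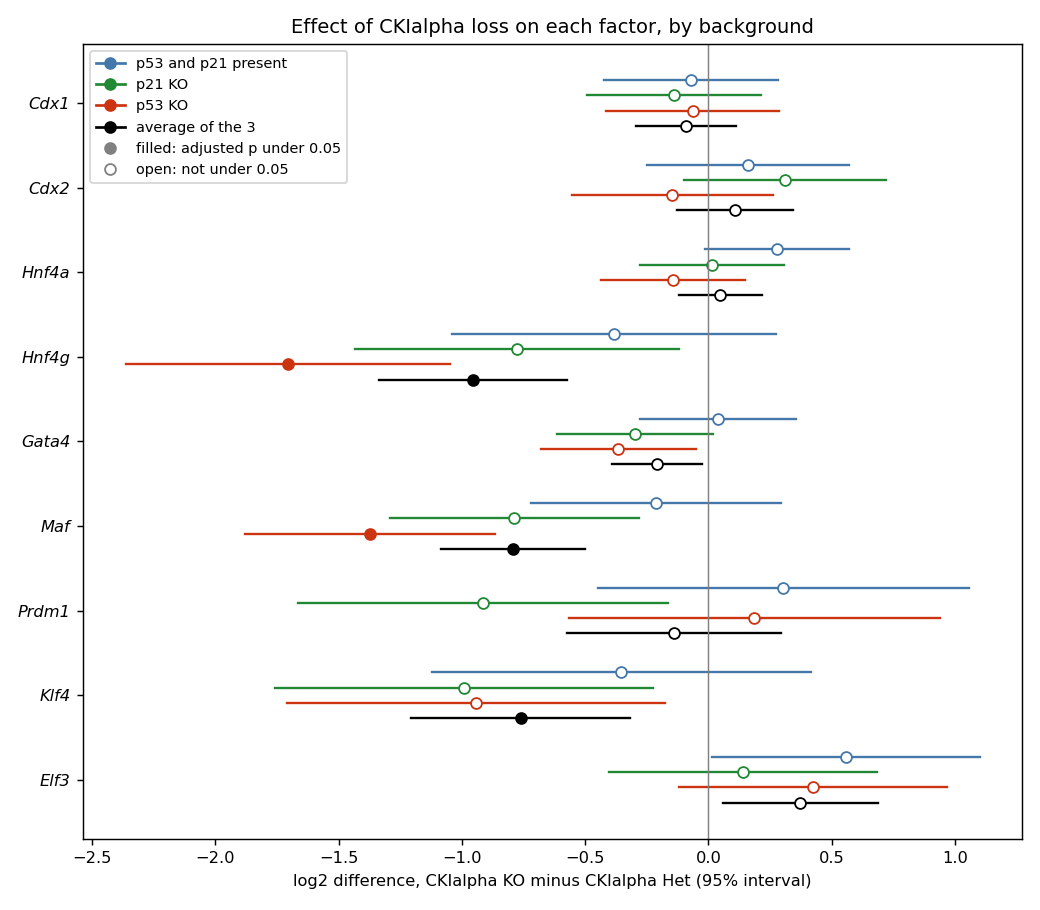
Log2 difference of CKIalpha KO minus CKIalpha Het for each gene (horizontal axis), with p53 and p21 present (blue), p21 knocked out (green), p53 knocked out (red) and averaged over the 3 backgrounds (black); points are limma estimates, lines their 95% intervals, and filled points have an adjusted p under 0.05. The filled points are Hnf4g and Maf without p53, at -1.71 and -1.37, and Hnf4g, Maf and Klf4 on average, at -0.95, -0.79 and -0.76.

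Whether the effect of CKIalpha loss depended on p53 or p21 was asked with interaction terms. The effect on Hnf4g without p53 minus that with both genes was -1.32 ± 0.42 (log2, limma adjusted p = 0.257) and that on Maf -1.16 ± 0.32 (adjusted p = 0.238), so a difference between backgrounds was not shown for either. For Hnf4g the interaction passed in a fit of only the arrays of the groups compared (adjusted p = 0.0481) and without either CKIalpha KO/p21 KO array (adjusted p = 0.0333), and the adjusted p ran from 0.0333 to 0.51 over all alternatives. The interaction of Hnf4a with p53 was -0.42 ± 0.19 (adjusted p = 0.332), and that of Prdm1 with p21 was -1.22 ± 0.48 (adjusted p = 0.615). In all, 0 of 9 genes passed either interaction by limma, where 0.0179% of all tested genes passed for p53 and 0% for p21. At an unadjusted p under 0.05 there were 3 of 9 for p53, beside 14.9% of all genes, and 1 of 9 for p21, beside 8.13%.

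In CKIalpha KO gut, adding the loss of p53 was accompanied by values of -1.24 ± 0.29 for Hnf4g (limma adjusted p = 0.065) and -0.80 ± 0.23 for Maf (adjusted p = 0.088), and 0 of 9 genes passed, against 0.694% of all genes, with 2 of 9 at an unadjusted p under 0.05, beside 22.3% of all genes. Both passed when either CKIalpha KO/p21 KO array was left out (adjusted p = 0.00399 and 0.0306, in ranges from 0.00399 to 0.31 and from 0.0306 to 0.352). This contrast shares the CKIalpha KO/p53 KO arrays with the comparison of KO and Het arrays without p53. Adding the loss of p21 gave -0.71 ± 0.29 for Hnf4g, -0.54 ± 0.23 for Maf and -0.46 ± 0.14 for Gata4 (adjusted p = 0.39, 0.395 and 0.274), with 0 of 9 passing, against 0.0359% of all genes, and 3 of 9 at an unadjusted p under 0.05, beside 12%. Without CKIalpha KO/p21 KO replicate 1, Hnf4g was at -1.28 in that contrast and passed (adjusted p = 0.00622, in a range from 0.00622 to 1). In CKIalpha Het gut the loss of p53 or of p21 left 0 of 9 genes called by limma, against 0% and 0.00598% of all genes, with 0 and 1 of 9 at an unadjusted p under 0.05, beside 5.63% and 5.01%.

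The genes closest in pattern to each member were found by the root mean square difference of mean-centred log2 values over the 12 arrays. For Hnf4g, whose own root mean square deviation was 0.66, they were Chpt1, an enzyme of phosphatidylcholine synthesis (0.13), Cd302, a lectin receptor (0.18), and the dehydrogenase Dhrs11 (0.18). Chpt1 was at 9.06 and 9.04 in CKIalpha Het/p53 KO and 7.34 and 7.22 in CKIalpha KO/p53 KO, and at 8.42 and 7.20 in CKIalpha KO/p21 KO; the choice by likeness sets this pattern. For Maf, with a deviation of 0.51, they were Clrn3 (0.13), the glycerol-phosphate acyltransferase Gpat3 (0.14) and the sorting nexin Snx25 (0.15). For Klf4 they were the diacylglycerol kinase Dgkq (0.13), the interferon lambda receptor gene Ifnlr1 (0.14) and Ccdc120 (0.14). The nearest genes of the remaining members were Dnaaf4 for Cdx1 (0.052), Tmem203 for Cdx2 (0.095), Homer1 for Hnf4a (0.062), Ift20 for Gata4 (0.098) and Metap1d for Elf3 (0.18).

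Among 20 tested genes of other transcription factors and co-activators of the gut epithelium, 1 rose and 6 fell without p53, with a median of -0.39 beside -0.06 over all genes. Limma called 6.82% of all genes lower in that comparison and 17.8% in either direction. Ehf, an ETS family factor related to Elf3, rose by 1.73 ± 0.32 (limma adjusted p = 0.0101). Ppargc1a, a co-activator of mitochondrial genes, fell by 2.36 ± 0.45 (adjusted p = 0.0115), Nr1h3, the sterol receptor LXRα, by 2.04 ± 0.40 (adjusted p = 0.012) and the orphan receptor gene Esrra by 0.73 ± 0.15 (adjusted p = 0.0127). The others that fell, named after their values were seen, were Gata5 (-1.09 ± 0.24), the vitamin D receptor gene Vdr (-1.26 ± 0.30) and the retinoid receptor gene Rxra (-0.82 ± 0.19). In the p21 KO background 0 of 20 passed by limma, beside 1.97% of all genes, with a median of -0.13. Ehf had the lowest adjusted p (1.44 ± 0.32, adjusted p = 0.0509), and 7 genes had an unadjusted p under 0.05, beside 23.2% of all genes. With both genes present 0 of 20 passed (median -0.07), beside 0.0239% of all genes. There, 1 had an unadjusted p under 0.05, Ppargc1a (-1.42 ± 0.45), beside 9.09% of all genes. On average over the backgrounds 2 rose and 8 fell, beside 8.96% of all genes called lower and 24.4% in either direction.

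**Figure D4:**
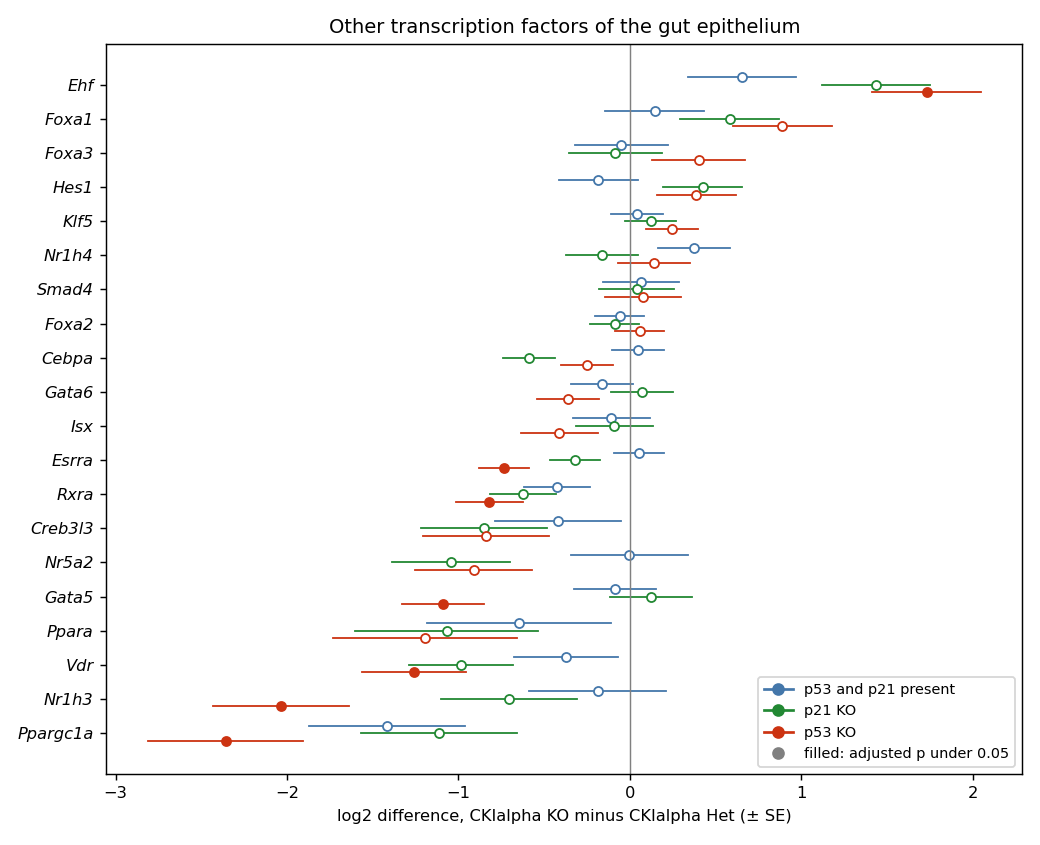
Log2 difference of CKIalpha KO minus CKIalpha Het (horizontal axis) for 20 other transcription factor and co-activator genes of the gut epithelium, ordered by the difference without p53, with p53 and p21 present (blue), p21 knocked out (green) and p53 knocked out (red); points are limma estimates, lines ± SE, and filled points have an adjusted p under 0.05. Ehf at 1.73 is the only filled point above 0, and Ppargc1a at -2.36 is the lowest.

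Genes that mature enterocytes express moved beside Hnf4g and Maf in the p53 KO background. Limma called 6.82% of all tested genes lower without p53, and the lists were chosen with earlier results of these data known. Without p53, 11 of 20 absorptive genes fell and 0 rose, with a median of -0.68, among them the peptidases Enpep (-1.85 ± 0.25) and Mep1a (-3.56 ± 0.63), the vitamin B12 receptor Cubn (-4.05 ± 0.71) and the peptide transporter Slc15a1 (-1.71 ± 0.34). Their mean level was 12.2 and 12.3 in CKIalpha Het/p53 KO and 10.9 and 10.5 in CKIalpha KO/p53 KO, and in CKIalpha KO/p21 KO it was 11.9 and 10.7, with the lower value on replicate 2, where Hnf4g, Maf and Klf4 were also lower. Of 10 villus tip genes 2 fell, the triglyceride enzyme Dgat1 (-1.14 ± 0.27) and the early response factor Fos (-0.75 ± 0.20), with a median of -0.61. Of 6 ileal bile acid genes 2 fell, the hormone Fgf15 (-1.45 ± 0.27) and the transporter subunit Slc51a (-1.03 ± 0.29), with a median of -1.09. This list was at 8.72 and 7.71 in CKIalpha Het/p53 KO, against 7.17 and 7.49 in CKIalpha Het. With p53 and p21 present 0 of 6 passed by limma, beside 0.0239% of all genes. There, 3 had an unadjusted p under 0.05, all higher, beside 9.09%. On average Slc10a2 rose (1.11 ± 0.30) and Fgf15 and Slc51a fell, beside 24.4% of all genes called in either direction.

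Genes of crypts and of dividing cells moved the other way in the p53 KO background. Of all 16721 tested genes, 1841 were called higher without p53. Of 13 crypt and Wnt target genes 10 rose without p53, with a median of 1.95, among them Axin2 (2.35 ± 0.23), a feedback inhibitor of the pathway. Of 11 proliferation genes 11 rose, with a median of 1.10, among them Mcm3 (1.66 ± 0.30). On average over the backgrounds 11 crypt genes rose and 1 fell, and 11 proliferation genes rose, beside 24.4% of all genes called in either direction. With p53 and p21 present 0 of either list passed by limma, beside 0.0239% of all genes. At an unadjusted p under 0.05 there were 6 of 13 crypt and 0 of 11 proliferation genes, beside 9.09%. The crypt list had mean levels of 6.18 and 6.24 in CKIalpha Het/p53 KO, 8.15 and 8.02 in CKIalpha KO/p53 KO, and 7.0 and 7.91 on replicates 1 and 2 of CKIalpha KO/p21 KO. It was at 6.35 on both CKIalpha Het arrays, and at 6.28 and 7.36 on replicates 1 and 2 of CKIalpha KO. Replicate 1 of CKIalpha KO thus lay below both CKIalpha Het arrays in this list. Replicate 2 of CKIalpha KO/p21 KO was further from its Het arrays than replicate 1 in the crypt list, in the absorptive list and in Hnf4g, Maf and Klf4. The part of a shift in the share of crypt and villus cells in these values was not tested.

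Of the other cell types, 6 of 10 enteroendocrine genes fell without p53 (median -1.16), among them the hormone genes Sst (-2.78 ± 0.47) and Gcg (-2.06 ± 0.37), and 5 of 7 goblet genes (median -1.28), and 1 of 7 Paneth genes, the protease Mmp7, rose (median 0.22). Of 7 tuft genes Avil rose and Sh2d6 fell (median -0.17), of 9 myeloid genes Cd68 and Cd14 rose (median -0.003) and of 6 endothelial genes Eng fell (median -0.25). By limma 0 of 8 fibroblast and smooth muscle genes (median -0.14), 0 of 8 T cell genes (median -0.09), 0 of 7 B and plasma cell genes (median -0.29) and the single red cell gene measured, Alas2 (0.01), passed. In these lists 1, 0, 1 and 0 genes had an unadjusted p under 0.05, beside 34.5% of all genes. Limma called 6.82% of all tested genes lower without p53 and 17.8% in either direction.

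Of the 150 tested genes of all lists 68 had an unadjusted p under 0.05 in the p21 KO background, beside 23.2% of all genes. By limma 11 of the 150 passed, against 1.97% of all genes. Axin2 and Rnf43 of the crypt list rose, as did the proliferation genes Mcm2, Plk1 and Bub1. The goblet genes Tff3 and Atoh1 fell, as did the enteroendocrine genes Chga, Neurod1 and Gip and the tuft gene Sh2d6. Of the 20 absorptive genes 0 passed and 2 had an unadjusted p under 0.05, with a median of -0.44. With p53 and p21 present 0 of the 150 passed, against 0.0239% of all genes, and 24 had an unadjusted p under 0.05, beside 9.09%.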

How the data were processed

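Expression was measured on Affymetrix arrays hybridized with labelled RNA. Per the labels' protocols, the authors used RMA Sketch in Expression Console 1.1 and then a median normalization. The deposited numbers are intensities on a scale taken here as log2, from their range, since no label states the base. Of 35556 probe sets, 21789 carried 1 gene symbol in the platform annotation, 1621 several and 12146 none. Genes were named from the first kind alone, with the probe set of highest mean per gene, and were tested when 2 or more arrays exceeded the array's 25th percentile (16721 genes).

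The 12 arrays of replicates 1 and 2 entered a limma fit (3.58.1, R 4.3.3) that had a coefficient for each group and 6 residual degrees of freedom. Two-sided p-values of 10 comparisons were given Benjamini-Hochberg adjustment over all tested genes of a comparison, and an adjusted p under 0.05 was called. The error term is the spread between replicates, which the labels call biological, pooled over the 6 groups. The number of arrays limits the precision. Related genes were compared with an exact permutation test within backgrounds, added after the values were seen. The fit was tested on simulated data.

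Named were the members, the 3 genes closest to each, and up to 4 genes of smallest p per list. Members, and the 16 lists, were chosen with earlier results of these data known. The lists cover other epithelial transcription factors, absorptive, ileal, villus tip, crypt and proliferation genes, and goblet, Paneth, enteroendocrine, tuft, stromal, T, B, myeloid, endothelial and red cells. Alternatives were no filter, quantile normalization, an intensity trend, the replicate block, array weights, only the groups compared, the mean of a gene's probe sets, and each array left out.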

Additional observations from a re-analysis of the deposited data

How the results depend on the processing

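For the number of members called in each of the 10 comparisons and 46 member differences, 7 other settings and 12 fits without 1 array were run. Of 874 recomputed differences, 833 kept direction and side of the threshold, 12 lost the call, 18 gained one and 11 changed sign. In a fit of only the arrays of the groups compared, 1 member passed the p53 interaction in place of 0. After a further quantile normalization Gata4 also passed by limma with p53 knocked out (adjusted p = 0.0447) and on average (adjusted p = 0.0325). No member lost a call there. With 1 array left out, the number called ran from 0 to 4 on loss of CKIalpha with p21 knocked out. On average over the backgrounds it ran from 2 to 4. With p53 knocked out it fell to 0 in some of these fits, and Klf4 joined Hnf4g and Maf without either CKIalpha KO/p21 KO array. The number ran from 0 to 1 for the p53 interaction and for p21 loss in CKIalpha KO. It ran from 0 to 2 for p53 loss in CKIalpha KO. An arm left with 1 array was assumed to vary like the other groups. After a further quantile normalization Hnf4a was at -0.20 with p21 knocked out, in place of 0.01, and at -0.073 on average, in place of 0.05; the cause was not tested. With 1 array left out, small differences changed sign within these ranges: Cdx1 from -0.20 to 0.060 with p53 and p21 present and from -0.30 to 0.022 with p21 knocked out, Cdx2 from -0.31 to 0.016 with p53 knocked out, Hnf4a from -0.044 to 0.072 and Elf3 from -0.16 to 0.44 with p21 knocked out, Maf from -0.49 to 0.064 with both genes present, and averaged Prdm1 from -0.33 to 0.053. Quantile normalization moved the median of all genes by at most 0.04 in size.

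The replicate numbers of the titles are shared by all groups. The deviations of same-numbered arrays correlated between -0.16 and 0.25 across genes, over 0.1 in 5 of 15 pairs of groups. The labels do not pair the arrays, although same-numbered arrays share the Xist pattern. With the replicate block the number of members called was the same in all 10 comparisons, with 2 on loss of CKIalpha without p53 and 3 on average. In the comparison of Hnf4g with Hnf4a, chosen after seeing the data, the replicate block left the value at -1.0 and moved the adjusted p from 0.0185 to 0.0625, the smallest its 64 regroupings allow after adjustment when the other pair misses. Each member has 1 probe set, so averaging probe sets left its own values as they were.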

Other observations

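The array titled as the third CKIalpha KO/p53 KO replicate, which its other labels call a CKI knockout, had log2 values of 11.08 for Hnf4g, 10.97 for Hnf4a, 8.45 for Maf, 9.47 for Klf4, 8.82 for Gata4, 7.04 for Cdx1, 9.07 for Cdx2, 9.57 for Elf3 and 6.26 for Prdm1. Its Hnf4g value lay above both CKIalpha KO/p53 KO arrays and below both CKIalpha KO arrays, and so did its Maf value.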
